A study of Mus musculus with 69 samples.

Results

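Expression of 9 genes of bone morphogenetic protein (BMP) signalling was followed in vascular cells exposed to obesity-associated stressors. The genes were the ligands Bmp2, Bmp3, Bmp4, Bmp6 and Gdf6, the secreted antagonist Grem1 and the target genes Id1, Id2 and Id3. They were taken by symbol from the 56953 gene rows of the count tables, and all 9 passed the count filter in every comparison. Bmp3 and Gdf6 had been chosen by their counts, because they responded to AII+NA in WT VSMC, and the other 7 by name. That comparison is therefore given as a description, and no test of it is used as support.

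Bulk RNA-Seq counts of 69 libraries were used, all from primary cells of male C57BL/6 mice. WT VSMC (16 libraries) were smooth muscle cells of the thoracic and abdominal aorta, labelled as wildtype. KO VSMC (15 libraries) came from the aorta of mice with floxed Egfr alleles and Cre recombinase under the SM22 promoter, which is active in smooth muscle, to delete the epidermal growth factor receptor (EGFR) in smooth muscle cells. EC (38 libraries) were heart cells without CD45 and with CD31, separated on magnetic beads, and all of them were labelled WT. Cells were passaged in culture, and all incubation solutions held albumin. The 24 h conditions were Control, HG+FFA (20 mM glucose with 100 µM free fatty acids in the labels, and with that amount of oleate and of palmitate each in the study's methods), AII+NA (30 nM angiotensin II with 300 nM of a catecholamine, epinephrine in the labels and norepinephrine in the study's methods) and ALL (every stressor at the same time).

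A set is the group of libraries made from cells of the same animal, passage and treatment time. WT VSMC comprised sets 1 to 4, and every condition had n = 4. KO VSMC comprised sets 5 to 8, with n = 4 except for ALL, where n = 3, because an ALL library of set 5 was not analysed here. EC comprised sets 9 to 18 from 9 animals, since sets 17 and 18 share an animal, with n = 9 for Control and AII+NA and n = 10 for HG+FFA and ALL. EC sets 9 and 10 came from the animals of WT VSMC sets 1 and 2, and EC sets 15 and 16 from those of KO VSMC sets 7 and 6. The labels put all VSMC libraries in batch B1 and all EC libraries in batch B2.

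BMP ligands are secreted members of the transforming growth factor β family. They bind complexes of type I and type II serine/threonine kinase receptors, which phosphorylate SMAD1, SMAD5 and SMAD9. These move to the nucleus with SMAD4 and switch on the Id genes, the classical readout of the pathway. Id proteins hold a helix-loop-helix domain without a DNA-binding region and keep E proteins such as TCF3 and TCF4 from binding DNA. Antagonists such as Gremlin 1, the product of Grem1, trap the ligands outside the cell. In vessels the pathway is known for its roles in smooth muscle differentiation, calcification and endothelial quiescence.

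Values are given as FPM, the counts of a gene per 1000000 counts of the library, with TMM normalization of library sizes. Libraries of WT VSMC held 23626664 to 37801299 counts, those of KO VSMC 23238979 to 35120866 and those of EC 17166133 to 43240489. Egfr itself reached 234 to 408 FPM as the mean of a WT VSMC set. It had 0.940 to 1.81 FPM in KO VSMC sets 6 to 8 but 35.8 FPM in set 5. Bulk counts cannot tell incomplete deletion in set 5 from RNA of other cell types there. Summed smooth muscle markers (7 genes) lay between 352 and 2036 FPM in WT VSMC and between 693 and 3460 FPM in KO VSMC, but Myh11, a marker of the contractile state, was only at 3.78 to 10.3 FPM in the WT sets. Summed fibroblast markers (6 genes, led by Col1a1 and Dcn) were higher, at 3734 to 10733 FPM (median 5943) in WT VSMC, and lay at 1227 to 6165 FPM (median 1695) in KO VSMC. Summed endothelial markers (8 genes) lay between 49.3 and 5096 FPM in EC, and the libraries of EC sets 9, 11 and 13 stood apart, with set means of 55.4, 137 and 60.2 FPM against 568 to 4554 FPM in the other sets. Pecam1, which encodes CD31 and on which the cells had been sorted, was at 15.7 to 44.3 FPM in those libraries. Results in EC are therefore given with and without these sets. Summed fibroblast markers lay between 453 and 11294 FPM in EC (library median 3142), against a library median of 805 FPM for endothelial markers. Smooth muscle markers summed to 213 to 3990 FPM in EC. In sets 10, 16 and 17 too, the fibroblast sum was above the endothelial sum. It had means of 2533, 3453 and 4602 FPM there, against 1946, 782 and 568 FPM. Only in sets 12, 14, 15 and 18 was the endothelial sum the higher. In WT VSMC, endothelial markers summed to 1.87 to 65.4 FPM, with the highest set mean in set 2.

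The order of the 9 genes was compared per gene length, as FPM per kilobase of exon (FPKM) in the Control libraries. In WT VSMC, Id3 led with 189 ± 72.7 FPKM (SD, n = 4), followed by Grem1 with 82.3 ± 30.8, Id1 with 28.9 ± 10.2, Bmp4 with 26.4 ± 7.22 and Id2 with 17 ± 4.64. Bmp3, Gdf6 and Bmp6 came next at 7.89 ± 4.87, 7.82 ± 2.37 and 7.39 ± 6.23 FPKM, and Bmp2 was last at 0.560 ± 0.561. In this order, only the steps from Id3 to Grem1, from Grem1 to Id1 and from Bmp6 to Bmp2 separated neighbours whose libraries did not overlap. KO VSMC showed the same leading genes, with Id3 at 304 ± 122, Grem1 at 114 ± 87.4, Id1 at 89.1 ± 48.2 and Bmp4 at 53.4 ± 39.3 FPKM, but Bmp3 came next to last with 1.78 ± 1.32 FPKM. All neighbours in KO VSMC overlapped. In EC the ligands stood higher in the order, with Id3 at 229 ± 117 FPKM followed by Bmp6 at 138 ± 113, Bmp4 at 80.0 ± 53.4 and Gdf6 at 70.8 ± 41.8 (SD, n = 9). Bmp3 was the lowest gene in EC at 0.356 ± 0.447 FPKM, and the step from Id2 (38.7 ± 19.4) to Bmp2 (0.471 ± 0.297) was the only one without overlap.

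**Figure D1:**
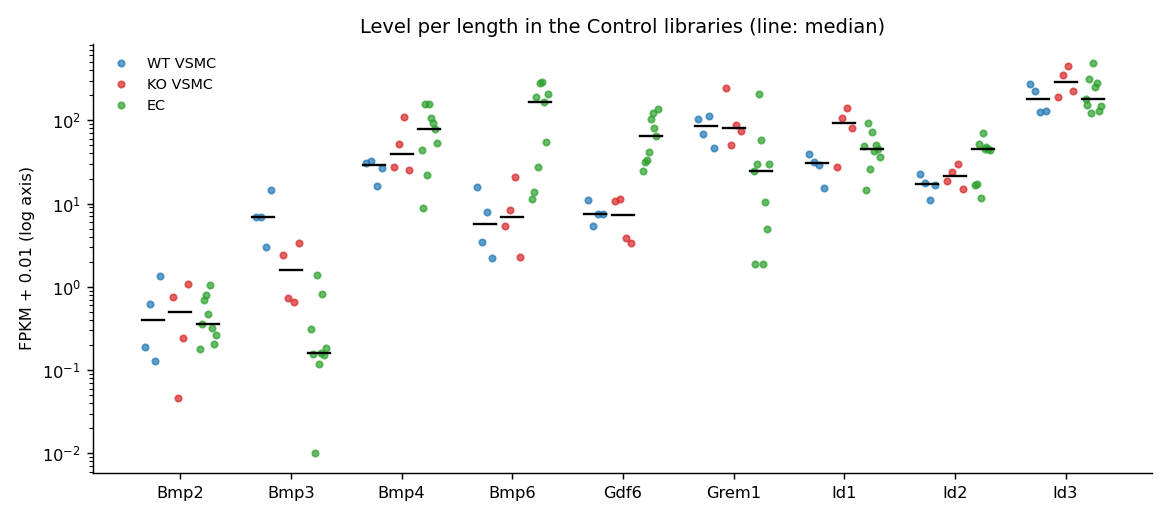
Level per gene length of the 9 genes in the Control libraries, as FPKM on a log axis with a small constant added so that libraries at 0 can be drawn. Points are libraries of WT VSMC (n = 4), KO VSMC (n = 4) and EC (n = 9), and lines are medians. Bmp3 lies highest in WT VSMC, with a mean of 7.89 FPKM there, 1.78 FPKM in KO VSMC and 0.356 FPKM in EC, whereas Bmp6 and Gdf6 lie highest in EC.

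Every DEG call that the stressors gave among the 9 genes fell on Bmp3 or Gdf6, and the pair had been chosen with such responses known. Bmp3 (chr5:99002268-99032255, GRCm39, plus strand) encodes an atypical ligand that does not activate the SMADs used by other BMPs and can oppose them. Gdf6 (chr4:9844350-9862354, plus strand) encodes a ligand known from joint and eye development. In WT VSMC, Bmp3 had 51.6, 51.1, 22.5 and 108 FPM in the Control libraries of sets 1, 2, 3 and 4, and 74.6, 89.8, 32.2 and 191 FPM in the AII+NA libraries of the same sets. Set 3 was lowest and set 4 highest in both conditions, so that the groups overlapped although every set was higher with AII+NA. Gdf6 had 39.3, 18.9, 26.6 and 26.7 FPM in Control and 66.5, 108, 44.6 and 173 FPM with AII+NA. Here the groups did not overlap, and sets 2 and 4 stood out with 5.71-fold and 6.46-fold increases, against 1.69-fold and 1.67-fold in sets 1 and 3.

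These values chose the pair. As a description, edgeR gave a log2FC of 0.67 ± 0.11 (SE) with an FDR of 0.0467 for Bmp3 and of 1.69 ± 0.32 with an FDR of 0.0869 for Gdf6. A gene was called a differentially expressed gene (DEG) when edgeR and DESeq2 both gave an FDR under 0.05, |log2FC| reached 0.64 or more and the mean of a group was 3 FPM or higher. By this definition Bmp3 was just inside and Gdf6 just outside, with edgeR's FDR deciding (DESeq2 FDR 5.73e-05 and 0.00644). Of all 16905 genes tested, 0.0414% were DEG in this comparison. When any 1 of the 4 sets was left out, neither gene was called. Bulk counts cannot tell fewer cells of a type from less RNA per cell, here and in all comparisons that follow.

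**Figure D2:**
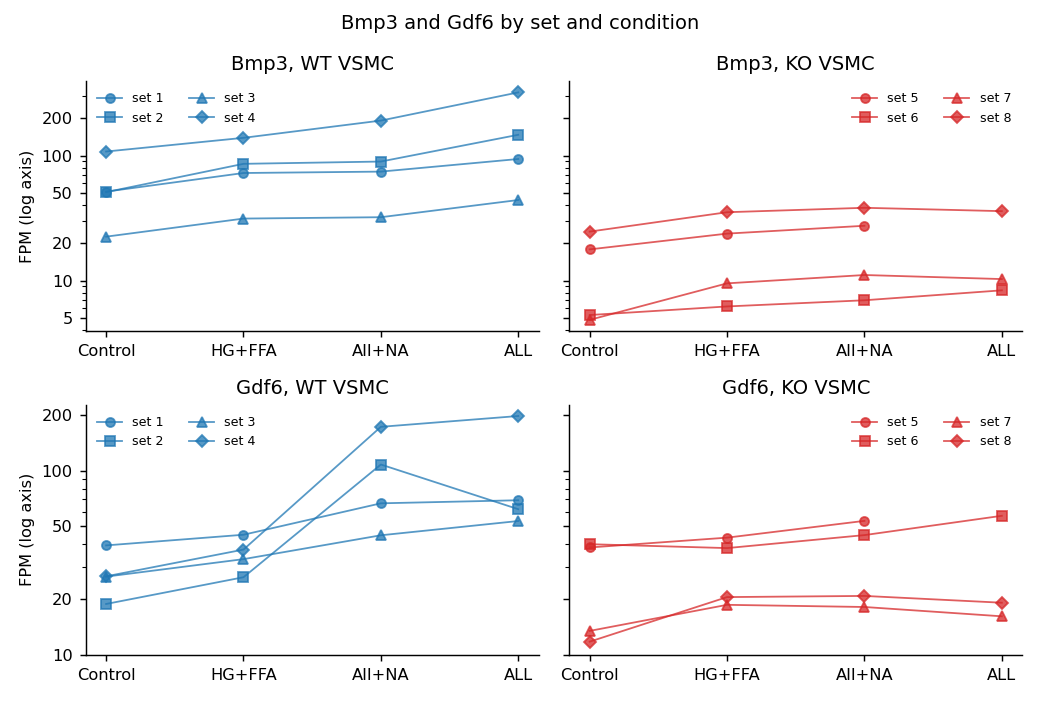
Bmp3 and Gdf6 in every VSMC library, as FPM on a log axis by condition, with a line for each set (sets 1 to 4 WT VSMC, sets 5 to 8 KO VSMC, no ALL library in set 5). In WT VSMC all 4 sets climb from Control to ALL, Bmp3 to 44.2 to 321 FPM and Gdf6 to 53.3 to 198 FPM. KO sets 6 to 8 also lie higher at ALL than at Control for both genes, at 8.37 to 36.0 FPM for Bmp3 and 16.2 to 56.9 FPM for Gdf6. The highest KO library of any condition has 38.3 FPM for Bmp3 and 56.9 FPM for Gdf6.

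ALL against HG+FFA shares no library with the comparison that chose the pair. It asks what AII+NA added in cells that were already under metabolic stress. The fit still took its spread from all WT VSMC libraries, including those that chose the pair. In WT VSMC, Bmp3 had 72.7, 86.1, 31.4 and 139 FPM with HG+FFA and 94.1, 147, 44.2 and 321 FPM with ALL, higher in 4 of 4 sets by 1.29-fold to 2.32-fold. This was a log2FC of 0.72 ± 0.11 (SE), with an FDR of 0.0390 in edgeR and 4.50e-06 in DESeq2, and Bmp3 was 1 of the 5 DEG, which were 0.0296% of the genes tested. The call was kept without set 1 (FDR 0.0442) and lost without set 2, 3 or 4 (FDR 0.161, 0.0828 and 0.210), although the log2FC stayed between 0.55 and 0.84. The call of Bmp3 was also lost when only these 2 groups were fitted. Gdf6 had 44.9, 26.4, 33.1 and 37.3 FPM with HG+FFA and 69.1, 61.8, 53.3 and 198 FPM with ALL, and these groups did not overlap. Its log2FC of 1.25 ± 0.32 missed the threshold in both tools, with an FDR of 0.130 in edgeR and 0.0888 in DESeq2. The increase was 5.29-fold in set 4, against 1.54-fold to 2.33-fold in sets 1 to 3. The SE comes from a spread that the fit shares over all WT VSMC conditions. It was 0.31 for Gdf6 with HG+FFA against Control too.

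Bmp6 was higher in 4 of 4 sets in this comparison but was not a DEG. It encodes a ligand that is best known for the control of iron through hepcidin, and had 49.9, 12.1, 23.2 and 9.29 FPM with HG+FFA and 63.2, 17.4, 31.7 and 15.3 FPM with ALL. The increase was 1.27-fold to 1.64-fold, at a log2FC of 0.50 ± 0.11 (FDR 0.0989 in edgeR and 0.00642 in DESeq2). Bmp4 had a log2FC of 0.34 ± 0.11 (edgeR FDR 0.260). The remaining 5 genes had log2FC between 0.05 and 0.34 and an edgeR FDR of at least 0.474.

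The 2 comparisons of HG+FFA and of ALL with Control in WT VSMC use the Control libraries that also served to choose the pair, so their values for Bmp3 and Gdf6 are not independent of that choice. With HG+FFA alone, 0 of the 9 genes were DEG, also by DESeq2 alone. Bmp3 came closest at a log2FC of 0.52 ± 0.11 (FDR 0.0542 in edgeR and 0.00343 in DESeq2), higher in 4 of 4 sets. DEG made up 0.284% of all genes in this comparison, and 2 of the 9 genes (Bmp3 and Id2) had an unadjusted p under 0.05 in edgeR, against 11.2% of all genes. Gdf6 had a log2FC of 0.34 ± 0.31 (edgeR FDR 0.751), although it was higher in 4 of 4 sets by 1.14-fold to 1.40-fold. With only these 2 groups fitted, the log2FC of Gdf6 was 0.37 ± 0.08 (edgeR FDR 0.0378), under the fold limit of a DEG. With ALL, Bmp3 rose by a log2FC of 1.25 ± 0.11 (2.38-fold, FDR 3.74e-05 in edgeR and 6.90e-22 in DESeq2), and Gdf6 by 1.58 ± 0.32 (2.99-fold, FDR 0.00713 and 0.00239). They were the 2 DEG among the 9 genes, in a comparison where 2.14% of all genes were DEG. Both calls held without each of the 4 sets.

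The sum of smooth muscle markers moved in the same libraries. It was led by Acta2, the smooth muscle actin gene, with a median set mean of 859 FPM in WT VSMC. Smtn came next with 65.6 FPM, so the sum mostly follows Acta2, and the other markers were not followed by condition. The sum in WT VSMC had a median of 689 FPM in Control (360 to 1170 FPM) and 609 FPM with HG+FFA (352 to 880 FPM), but 1521 FPM with AII+NA (830 to 2036 FPM) and 1143 FPM with ALL (1074 to 1508 FPM). In KO VSMC the medians were 1520, 1403 and 1766 FPM in the first 3 conditions. The 1128 FPM with ALL cannot be set beside them, since it lacks set 5, the KO set with the highest sum (a mean of 3215 FPM, against 881 to 1974 FPM in sets 6 to 8). No difference in markers between the genotypes was tested. The part of this change in the values of Bmp3 and Gdf6 was not tested. Endothelial markers in WT VSMC did not move with the conditions in this way, at medians of 9.41, 8.74, 8.50 and 7.43 FPM.

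In KO VSMC, the smooth muscle cells with deleted EGFR, Bmp3 rose with ALL from a lower level. It had 17.8, 5.31, 4.86 and 24.7 FPM in the Control libraries of sets 5, 6, 7 and 8, 23.8, 6.22, 9.52 and 35.3 FPM with HG+FFA, 27.5, 6.97, 11.1 and 38.3 FPM with AII+NA, and 8.37, 10.3 and 36.0 FPM with ALL in sets 6 to 8. Each stressor condition was above Control in every set, and sets 5 and 8 were above sets 6 and 7 throughout. With ALL, Bmp3 rose by a log2FC of 0.72 ± 0.14 (1.65-fold, FDR 0.0296 in edgeR and 8.07e-04 in DESeq2) and was the only DEG among the 9 genes, against 0.314% of all genes. The call was kept without set 5 (FDR 0.0250) and lost without set 6, 7 or 8 (FDR 0.224, 0.484 and 0.113), with a log2FC between 0.61 and 0.80.

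The log2FC of Bmp3 with AII+NA in KO VSMC, 0.70 ± 0.12, was close in size to the 0.67 ± 0.11 of WT VSMC. It had an FDR of 0.239 in edgeR and 6.21e-04 in DESeq2, and was not a DEG. In this comparison 0% of the 17538 genes were DEG, and 9.76% had an unadjusted p under 0.05 in edgeR. Among the 9 genes, 2 had such a p (Bmp3 and Gdf6) and 0 were DEG. DESeq2 alone called 1 of the 9, Bmp3, and 13 of all 17538 genes. With HG+FFA, Bmp3 had a log2FC of 0.52 ± 0.12 (FDR 0.0896 and 0.00849).

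Gdf6 was not a DEG in KO VSMC. Its Control libraries had 38.3, 39.9, 13.5 and 11.8 FPM, those with AII+NA 53.4, 44.7, 18.2 and 20.9 FPM, and those with ALL 56.9, 16.2 and 19.2 FPM in sets 6 to 8. Sets 5 and 6 were above sets 7 and 8 in Control and with AII+NA, and the groups overlapped. The log2FC was 0.46 ± 0.13 with AII+NA (FDR 0.509 in edgeR and 0.105 in DESeq2) and 0.47 ± 0.14 with ALL (FDR 0.231 and 0.133). With ALL against HG+FFA, the log2FC in KO VSMC was 0.20 ± 0.13 for Bmp3 and 0.14 ± 0.14 for Gdf6. Here 0 of the 9 genes were DEG or had an unadjusted p under 0.05, and DESeq2 alone also called 0. In all genes the shares were 0% and 2.91%.

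**Figure D3:**
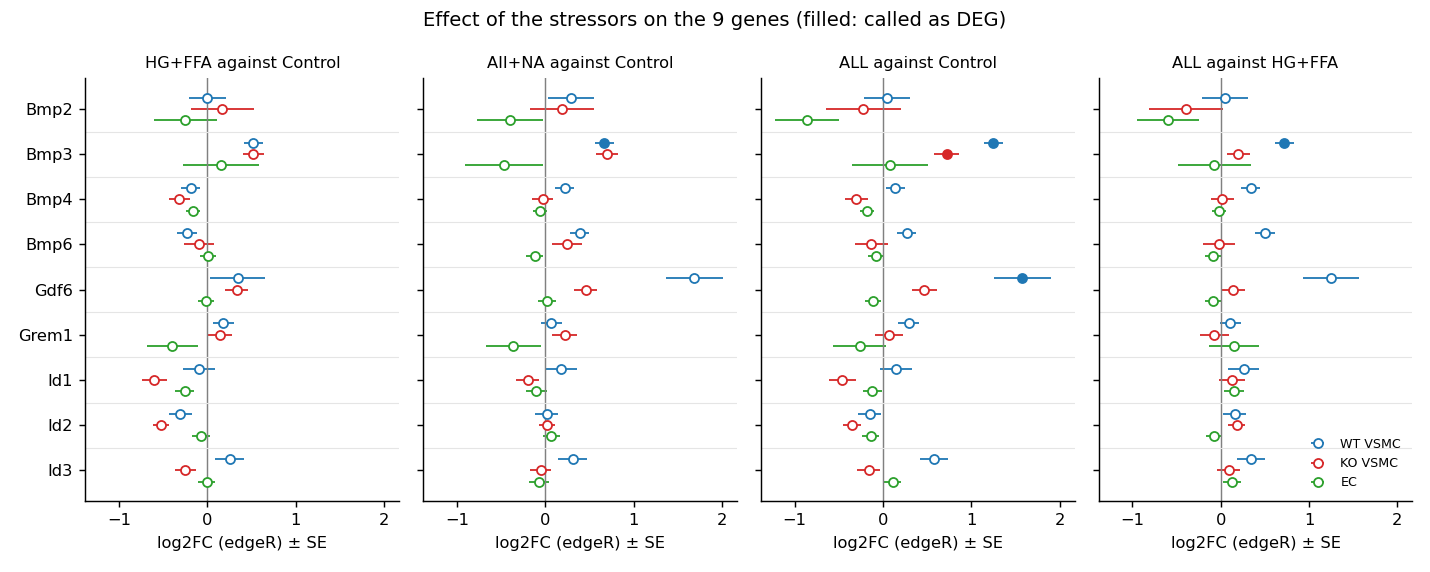
Effect of the stressors on the 9 genes in WT VSMC (blue), KO VSMC (red) and EC (green), as the edgeR log2FC with bars for its SE, for 4 comparisons side by side. Filled points are DEG. Only Bmp3 (WT VSMC with AII+NA, ALL and ALL against HG+FFA, KO VSMC with ALL) and Gdf6 (WT VSMC with ALL) are filled, and the EC points of genes other than Bmp2, Bmp3 and Grem1 lie within 0.26 of 0.

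Whether the stressor effects differed between genotypes was tested in a joint model, with positive values where the log2FC was larger in WT VSMC. For ALL, the difference was 0.54 ± 0.18 for Bmp3 (edgeR FDR 0.439), 1.12 ± 0.40 for Gdf6 (FDR 0.485) and 0.75 ± 0.23 for Id3 (FDR 0.353). No difference passed the threshold, so that 0 of the 9 genes were DEG by edgeR with DESeq2 and also by DESeq2 alone, against 0.0109% of all 18339 genes. At an unadjusted p under 0.05 there were 5 of 9, namely Bmp3, Bmp4, Gdf6, Id1 and Id3, against 7.42% of all genes. Since Bmp3 and Gdf6 were chosen with the Control libraries of WT VSMC, their part in this count is not independent.

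ALL against HG+FFA compares no Control library, although the joint fit took its spread from those libraries too. The genotype difference in this comparison was 0.53 ± 0.18 for Bmp3 (edgeR FDR 0.849) and 1.11 ± 0.40 for Gdf6 (FDR 0.852). Here 3 of 9 genes (Bmp3, Bmp6 and Gdf6) had an unadjusted p under 0.05, against 5.5% of all genes, and 0 were DEG, as were 0% of all genes and 0 of the 9 by DESeq2 alone. Leaving out any 1 set kept both differences positive, at 0.36 to 0.64 for Bmp3 and 0.68 to 1.32 for Gdf6, with the lowest value of both when set 4 was left out. For HG+FFA against Control, the difference was 0.00 ± 0.17 for Bmp3 and 0.01 ± 0.38 for Gdf6. Only Id3 had an unadjusted p under 0.05 there (0.50 ± 0.22), 1 of 9 against 3.08% of all genes, and 0 of the 9 genes and 0% of all genes were DEG, with 0 of the 9 by DESeq2 alone.

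In the Control libraries, KO VSMC were set against WT VSMC, groups of different animals. The Bmp3 values of 4.86 to 24.7 FPM in KO VSMC and 22.5 to 108 FPM in WT VSMC overlapped only between KO set 8 and WT set 3. The log2FC was -2.19 ± 0.63, with an FDR of 0.339 in edgeR and 0.0172 in DESeq2. Since the WT Control libraries also served to choose Bmp3, this value is not independent of that choice. Id1 showed the opposite direction at 48.7, 188, 252 and 143 FPM in KO VSMC against 70.8, 55.7, 51.8 and 27.0 FPM in WT VSMC, a log2FC of 1.58 ± 0.47 (FDR 0.344 and 0.0371). KO set 5, the KO set with the most Egfr RNA, was the only KO set within the range of WT VSMC for Id1. Set 5 also stood apart in its markers, with mean sums of 5800 FPM for fibroblast markers (1493 to 2132 FPM in sets 6 to 8) and 128 FPM for leukocyte markers (at most 31.7 FPM in those sets), and with the highest smooth muscle sum. In the Control libraries, fibroblast markers summed to 1439 to 6165 FPM in KO VSMC and 4544 to 10733 FPM in WT VSMC. The part of other cell types in the values of Bmp3 and Id1 was not tested. Without set 5 the log2FC of Id1 was 1.88 with an FDR of 0.0304 in edgeR, and the gene was a DEG. With all sets, 0 of the 9 genes were DEG and 2 had an unadjusted p under 0.05, against shares of 0.00622% and 12.2% of all genes. DESeq2 alone called 2 of the 9 (Bmp3 and Id1), and 275 of all 16089 genes tested.

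The other ligands and Grem1 gave 0 calls under any stressor in VSMC. Bmp2 (chr2:133394079-133404816, plus strand), a potent inducer of bone formation, was below 7 FPM in all libraries, at 0.553 to 6.93 FPM in WT VSMC and 0.168 to 4.95 FPM in KO VSMC. Bmp4 (chr14:46620250-46636745, minus strand), a ligand needed for mesoderm and vessel development, had 162, 168, 84.6 and 140 FPM in the Control libraries of WT VSMC and 132, 190, 84.9 and 226 FPM with ALL. In KO VSMC it had 143, 271, 574 and 131 FPM in Control and 148, 253, 374 and 87.7 FPM with HG+FFA. Set 7 was highest for Bmp4 in all KO conditions, and the groups overlapped (log2FC -0.32 ± 0.12, edgeR FDR 0.329). Of the exon bases of Bmp4, 31.1% also belong to other annotated genes on the opposite strand, so reads of such genes cannot be told apart if strand was not used in counting.

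Bmp6 (chr13:38529065-38684280, plus strand) differed more between sets than between conditions. It had 62.6, 13.4, 31.1 and 8.73 FPM in the Control libraries of WT VSMC and 20.8, 32.7, 82.6 and 8.97 FPM in those of KO VSMC. In WT VSMC its order of sets (1, 3, 2, 4) was the same in all conditions. Grem1 (chr2:113576509-113589000, minus strand), whose product binds BMP2, BMP4 and BMP7, had 428, 282, 467 and 192 FPM in Control and 415, 382, 582 and 262 FPM with ALL in WT VSMC, a log2FC of 0.29 ± 0.12 (edgeR FDR 0.150). In KO VSMC it reached 1009 FPM in the Control library of set 5 and 208 to 365 FPM in the other 3. The mean of 339 FPM with ALL in KO VSMC, below the 472 FPM of Control, lacks set 5, and the paired log2FC was 0.07 ± 0.16.

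The Id genes are the direct transcriptional readout of BMP receptors. Their positions are chr2:152566218-152579544 on the plus strand (Id1), chr12:25143798-25147282 on the minus strand (Id2) and chr4:135870808-135873066 on the plus strand (Id3). The promoters of Id2 and Id3 are shown because Id2 had the lowest FDR of the Id genes with HG+FFA in KO VSMC and Id3 with ALL in WT VSMC, in opposite directions. The sequences are from RefSeq (build GRCm38.p6), where 5 of the 9 genes had an entry, and run over the 250 bases before the start of transcription, at chr12:25096093-25096342 on the minus strand for Id2 and at chr4:136143572-136143821 on the plus strand for Id3. Capitals mark 3 motifs, searched on both strands: GGCGCC, known as a SMAD-binding element of BMP target genes; CCAAT; and TATAA.
Id2: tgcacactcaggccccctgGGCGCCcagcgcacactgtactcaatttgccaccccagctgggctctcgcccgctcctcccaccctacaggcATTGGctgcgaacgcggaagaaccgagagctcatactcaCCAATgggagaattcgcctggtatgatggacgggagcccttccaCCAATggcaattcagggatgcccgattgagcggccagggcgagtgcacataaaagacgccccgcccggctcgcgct
Id3: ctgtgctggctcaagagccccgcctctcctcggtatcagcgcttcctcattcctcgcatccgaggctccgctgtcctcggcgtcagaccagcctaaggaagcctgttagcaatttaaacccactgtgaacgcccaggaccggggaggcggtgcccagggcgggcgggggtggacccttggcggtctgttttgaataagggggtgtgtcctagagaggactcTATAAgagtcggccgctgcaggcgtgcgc

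The motifs do not overlap each other. Id2 held GGCGCC from position -231 and CCAAT from -159 (on the other strand, read as ATTGG), -120 and -76, counted from the start of transcription, and no TATAA. Id3 held TATAA from -29 and neither of the other motifs. Among 32851 promoter windows from 250 bases before to 50 bases after the start, 11.9% held GGCGCC, 37.4% CCAAT and 24.9% TATAA. The windows of Bmp4 and Bmp6 held none of the 3 motifs, and that of Grem1 held GGCGCC from -78 and CCAAT from -69. A match to these letters is a description of the sequence only.

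In KO VSMC, Id1 and Id2 were lower with HG+FFA in every set. Id2 had 64.7, 83, 105 and 52.3 FPM in Control and 46.2, 66.1, 63.8 and 34.8 FPM with HG+FFA, lower in 4 of 4 sets at 0.61-fold to 0.80-fold of Control, with overlap between the groups. The log2FC was -0.53 ± 0.09, with an FDR of 0.0151 in edgeR and 1.55e-05 in DESeq2, so Id2 passed both FDR limits and missed the fold limit of a DEG. Id1 had 48.7, 188, 252 and 143 FPM in Control and 47.4, 143, 120 and 81.8 FPM with HG+FFA, also lower in 4 of 4 sets. Set 5, which stood apart in Egfr RNA and in markers, was low in both conditions. It had the smallest change (0.97-fold, against 0.47-fold to 0.76-fold in sets 6 to 8). The log2FC of Id1 was -0.60 ± 0.14 with an FDR of 0.0768 in edgeR and 0.00615 in DESeq2, and without set 5 it was -0.77 with an FDR of 0.00692, a DEG. Id3 had a log2FC of -0.25 ± 0.12 (edgeR FDR 0.404), lower in sets 6 to 8 and higher in set 5.

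With all sets, 0 of the 9 genes were DEG with HG+FFA in KO VSMC by edgeR with DESeq2 and by DESeq2 alone, as were 0.285% of all genes. An unadjusted p under 0.05 was found for 5 of the 9 (Bmp3 and Gdf6 higher, Bmp4, Id1 and Id2 lower), against 12.4% of all genes. With ALL in KO VSMC, Id2 was at 68.9, 72.5 and 43.5 FPM in sets 6 to 8, a log2FC of -0.35 ± 0.10 (FDR 0.194 in edgeR and 0.0484 in DESeq2). Id1 was at 155, 133 and 103 FPM, a log2FC of -0.46 ± 0.15 (FDR 0.262). Of the exon bases of Id2, 36.2% are shared with other annotated genes on the opposite strand, and for Id1 and Id3 the shares are 13.7% and 11.8%.

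In WT VSMC, Id3 had 489, 406, 227 and 233 FPM in Control and 595, 618, 295 and 477 FPM with ALL, higher in 4 of 4 sets by 1.22-fold to 2.05-fold, with overlap between the groups. Its log2FC of 0.58 ± 0.16 had an FDR of 0.0408 in edgeR and 0.111 in DESeq2, which is not a DEG. With HG+FFA, set 1 stood out at 801 FPM for Id3 and 94.4 FPM for Id1, while the other 3 sets had 246 to 360 FPM and 26.4 to 43.9 FPM. Id2 had 78.0, 62.1, 38.6 and 57.7 FPM in Control and 72.8, 52.2, 28.2 and 40.5 FPM with HG+FFA, lower in 4 of 4 sets at a log2FC of -0.31 ± 0.13 (edgeR FDR 0.340). The genotype difference for Id2 with HG+FFA was 0.22 ± 0.16 and did not pass the threshold.

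**Figure D4:**
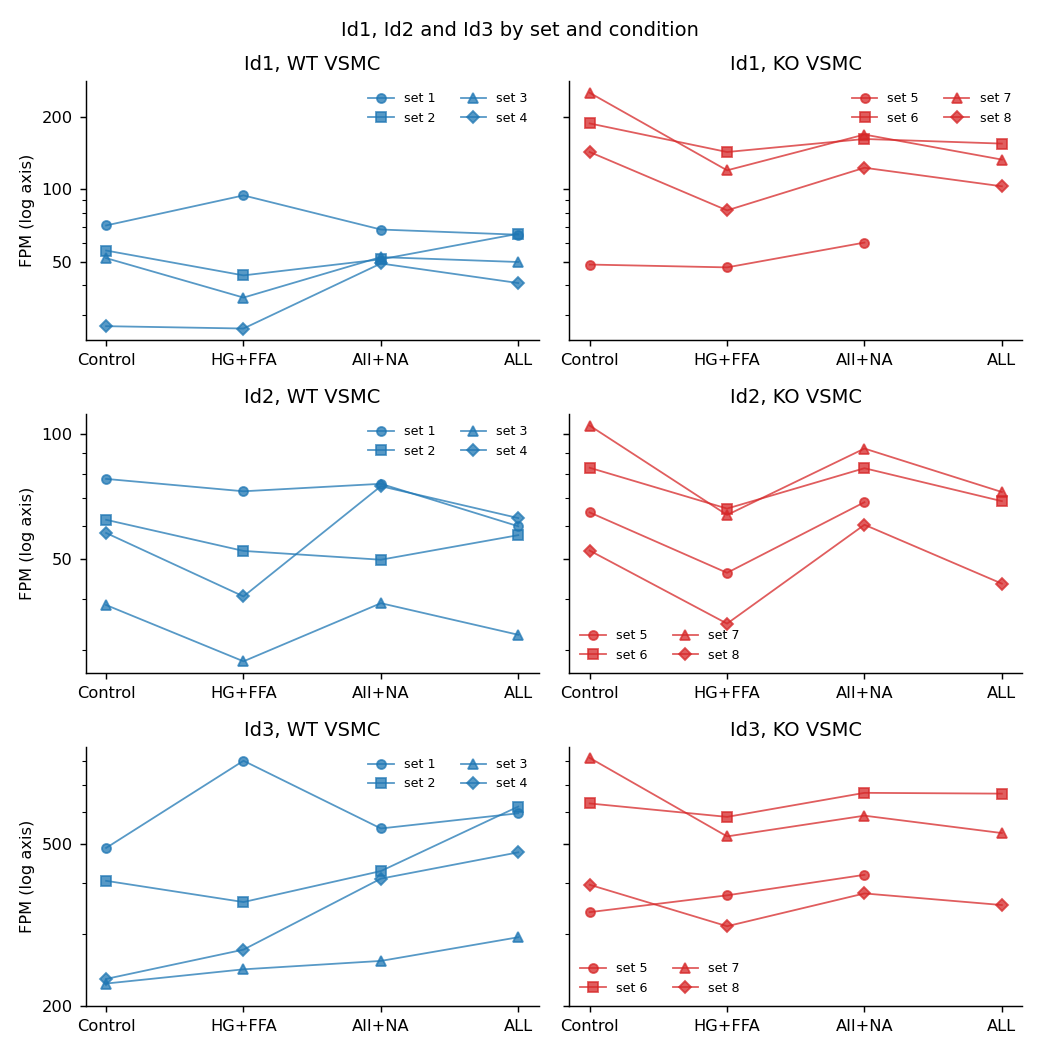
Id1, Id2 and Id3 in every VSMC library, as FPM on a log axis by condition, with a line for each set (left WT VSMC, right KO VSMC, no ALL library in set 5). Id2 lies below Control at HG+FFA in all 8 sets, at 28.2 to 72.8 FPM in WT VSMC and 34.8 to 66.1 FPM in KO VSMC, and Id1 of KO set 5 runs below the other KO sets.

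Across the 31 VSMC libraries, after centring each gene on its set mean, log2 FPM of Bmp3 and Gdf6 had a Pearson r of 0.75. Id1 had an r of 0.80 with Id2, 0.79 with Id3 and 0.71 with Bmp4, whereas Id2 and Id3 reached 0.41. Bmp3 had an r of -0.01 with Id1 and -0.17 with Id2. These points share sets and libraries, so the values are descriptions. Bmp3 and Gdf6 were chosen because both responded to AII+NA in WT VSMC. Those libraries are among the 31, so the r of 0.75 is not independent of that choice. Among 11479 protein-coding genes, the patterns closest to Gdf6 were those of Map3k7cl, Mark1 and Gpr176, each with an r of 0.95 (0.97 to 0.98 within WT VSMC and 0.65 to 0.68 within KO VSMC). Closest to Bmp3 were Lclat1 (0.91), Ofd1 (0.90) and Prex2 (0.89). An r of 0.56 for Bmp3 and 0.54 for Gdf6 marked the top 5% of these genes.

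In EC, none of the 9 genes responded past the thresholds. Gdf6 had 86.6 to 482 FPM in Control (median 230) and 87.1 to 460 FPM with AII+NA (median 273), and Bmp3 had 0 to 10.2 FPM (median 1.12) and 0 to 13.7 FPM (median 0.898). Their log2FC with AII+NA were 0.02 ± 0.10 for Gdf6 and -0.47 ± 0.44 for Bmp3, and 0% of the 17148 genes were DEG. Bmp3 had 0 counts in 3 EC libraries (Control and AII+NA of set 12, ALL of set 18), where 3 counts would have been 0.125, 0.161 and 0.108 per 1000000 counts. For HG+FFA, the largest change with an unadjusted p under 0.05 was that of Id1 at -0.26 ± 0.11 (edgeR FDR 0.227), lower in 7 of 9 sets. For ALL, Bmp2 had -0.86 ± 0.36 (FDR 0.217) at 1.49 against 2.18 FPM, and Bmp4 had -0.18 ± 0.08 (FDR 0.238).

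The count of DEG among the 9 genes was 0 in each EC comparison, by edgeR with DESeq2 and by DESeq2 alone, and also without sets 9, 11 and 13. At an unadjusted p under 0.05, 1 of 9 was found with HG+FFA (16.9% of all genes), 0 with AII+NA (6.67%), 2 with ALL (16.2%) and 0 with ALL against HG+FFA (5.14%). DEG made up 0.647% of all genes with HG+FFA, 0.641% with ALL and 0% with ALL against HG+FFA.

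The baseline of EC and WT VSMC was compared in the Control libraries. These groups differ in organ and labelled batch as well as cell type, which cannot be told apart. Bmp6 was higher in EC, at 43.9 to 1125 FPM (median 652) against 8.73 to 62.6 FPM, a log2FC of 4.13 ± 1.04 (17.51-fold, FDR 0.0247 in edgeR and 6.28e-06 in DESeq2). Gdf6 was at 86.6 to 482 FPM in EC and 18.9 to 39.3 FPM in WT VSMC without overlap, a log2FC of 3.01 ± 0.51 (8.06-fold, FDR 0.00495 and 6.38e-09). Bmp3 was lower in EC without overlap, with a log2FC of -4.47 ± 0.89 (FDR 0.00935 and 2.05e-05). These 3 of the 9 genes were DEG, against 9.27% of all 16958 genes. Bmp3 and Gdf6 had been chosen with the same WT Control libraries, so that their part in this count is not independent. Gdf6 kept its call without each WT set. Bmp6 lost it without WT set 2, 3 or 4 (edgeR FDR 0.0825, 0.0714 and 0.0745) at a log2FC of 3.82 to 4.15. For Bmp3, DESeq2 gave no adjusted p without WT set 3 or 4, where the FDR in edgeR was 0.0165 and 0.0356. EC set 9 and WT set 1 share an animal, which this fit did not use.

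The EC sets with few endothelial transcripts also differed from the rest in some of the 9 genes, Bmp6 among them. In the 12 libraries of sets 9, 11 and 13, Bmp6 was at 30.9 to 109 FPM and Bmp4 at 41.5 to 232 FPM. In the 26 libraries of the other 7 sets, Bmp6 was at 213 to 1125 FPM and Bmp4 at 222 to 878 FPM. Id2 was at 40.6 to 89.0 FPM in the former and 82.8 to 244 FPM in the latter. Acta2, the smooth muscle actin, was at 717 to 3759 FPM against 163 to 852 FPM. No test was made between these sets, since they were told apart by their own RNA, and the part of other cell types in these values was not tested. Gdf6 did not follow the markers in every set, with a mean of 113 FPM in set 12, where endothelial markers summed to 4554 FPM. Grem1 was at 951 FPM in set 13 and at 7.53 to 262 FPM in the other sets.

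EC and WT VSMC were also compared without sets 9, 11 and 13, as a description. These sets were left out for their own RNA, and Bmp4, Bmp6 and Id2 were low in them. Leaving them out therefore raised these genes in EC, and no call of this fit is used as support. Sets 16 and 17, with more fibroblast than endothelial marker RNA, were still in it. By this fit, 6 of the 9 genes were DEG. The share of all genes that were DEG in this fit was not counted, so this count has no background beside it. Bmp3 (log2FC -5.12), Bmp6 (4.74) and Gdf6 (3.40) stayed DEG. Bmp4 (2.03, edgeR FDR 0.00132), Id1 (0.95, FDR 0.0437) and Id2 (1.52, FDR 0.00126) were added, all higher in EC. With all sets these were at log2FC of 1.53 ± 0.63 for Bmp4 (FDR 0.122), 0.65 ± 0.41 for Id1 (FDR 0.298) and 1.07 ± 0.45 for Id2 (FDR 0.126).

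**Figure D5:**
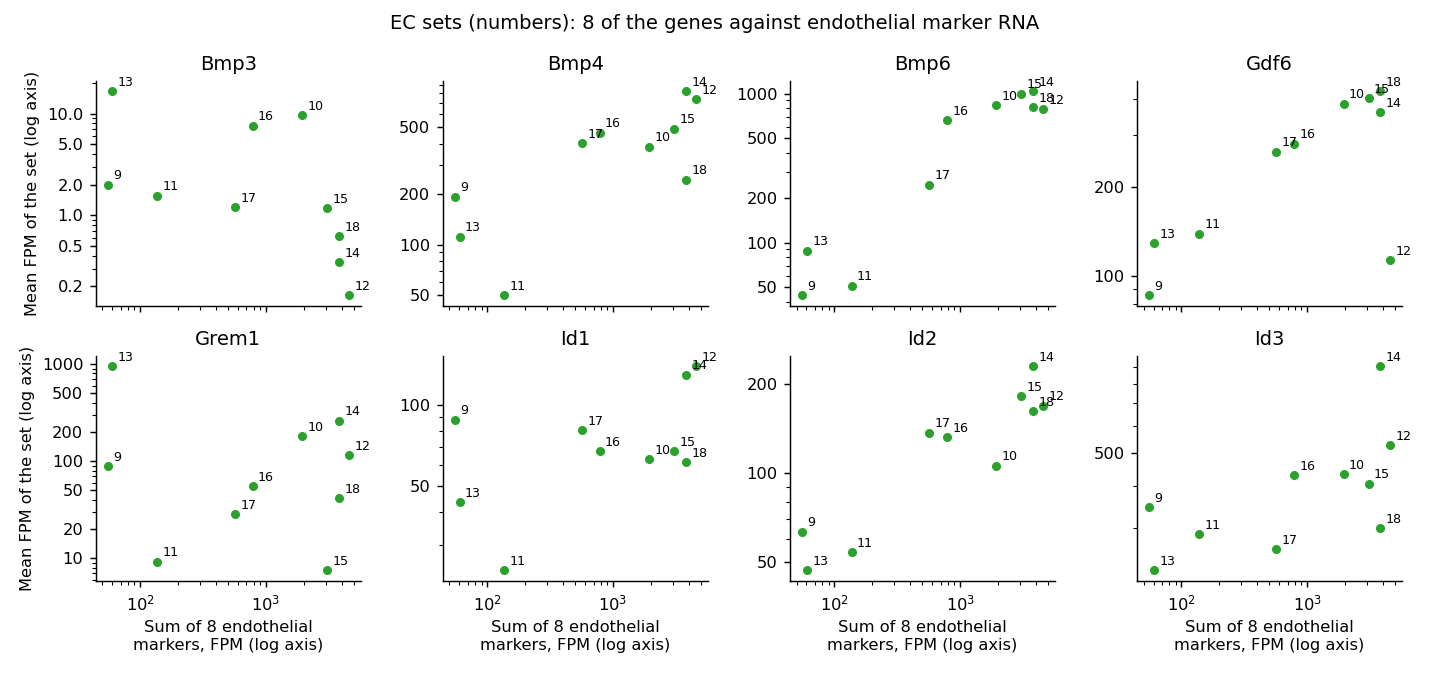
Mean FPM of 8 of the 9 genes in each EC set against the summed FPM of 8 endothelial markers, both on log axes, with the set number beside each point. Sets 9, 11 and 13 lie at the left with 55.4 to 137 FPM of endothelial markers, and Bmp4, Bmp6 and Id2 are lowest there, whereas Gdf6 is also low in set 12 (113 FPM) and Grem1 peaks in set 13 (951 FPM).

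A list of 59 other genes of the pathway was examined for the same comparisons, of which 48 were tested for WT VSMC, 52 for KO VSMC and 49 for EC. Under the stressors, Bmper was the only DEG of this list, 1 of 48 tested genes in WT VSMC with ALL, where 2.14% of all genes were DEG. It encodes a secreted modulator that binds BMPs, and fell to 21.2 FPM from 41.1 FPM in Control, a log2FC of -0.95 ± 0.18 (FDR 0.00457 in edgeR and 1.93e-05 in DESeq2). The median log2FC of the list was -0.02 in that comparison and -0.01 over all genes tested. No other ligand, receptor, SMAD or target gene of the list was a DEG under any stressor in any of the cells, nor did any differ between genotypes past the threshold.

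Between EC and WT VSMC, 9 of 50 tested genes of the list were higher in EC and 5 were lower, where 9.27% of all genes were DEG in either direction. The inhibitory SMADs stood out, with Smad7 at 166 against 33.7 FPM (log2FC 2.30 ± 0.47, edgeR FDR 0.0110) and Smad6 at 301 against 75.1 FPM (2.00 ± 0.46, FDR 0.0173). Both are feedback inhibitors of receptor signalling. The type II receptor gene Bmpr2, known from hereditary pulmonary hypertension, was at 224 against 97.1 FPM (1.21 ± 0.20, FDR 0.00486). Also higher were Crim1, Neo1, Smad9, Skil, Atoh8 and Tcf12. Lower in EC were the type I receptor gene Bmpr1b at 0.484 against 4.21 FPM (-3.13 ± 0.79, FDR 0.0249), the antagonist Nbl1 at 124 against 503 FPM (-2.02 ± 0.48, FDR 0.0205), and Chrd, Rgma and Rgmb. The median log2FC of the list was 0.20, and that of all genes tested was 0.04.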

How the data were processed

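RNA-Seq was carried out on poly(A) RNA of 69 libraries. Reads were aligned to the mouse genome (mm39) with HISAT2 2.1.0 and assigned to exons with featureCounts, with multi-mapping reads counted and the strand setting not given in the sources used here. The authors deposited raw read counts per gene, without normalization. The members and lists were chosen with earlier results of these data known.

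Here edgeR 4.0.16 (quasi-likelihood, TMM, filterByExpr) was fitted with condition and set, separately for WT VSMC, KO VSMC and EC and jointly for genotype differences, and DESeq2 1.42.0 with the same model (R 4.3.3). The Benjamini-Hochberg adjustment ran over every gene tested in a comparison. Comparisons of Control libraries between cells had no block. Pairing comes from the set numbers in the labels, which mark the same animal. Deviations of same-set libraries correlated at a mean r of 0.80 for WT VSMC, 0.796 for KO VSMC and 0.86 for EC (lowest 0.418). Single values used a pseudocount of 0.1 FPM. Named genes were the 9 members, DEG of the pathway list and the 3 genes closest in pattern to Bmp3 and Gdf6. Models were tested on simulated counts. Symbols and positions came from a GRCm39 annotation, which lacked 0.0241% of the counts. P-values of stressor effects measure the spread of responses between sets, since the level of each set was fitted. There, the EC sets of a shared animal count as separate sets. P-values between cells measure the spread between animals, with the EC libraries of a shared animal summed. Alternatives were DESeq2 alone, its size factors, no count filter, no block, only the 2 groups compared, and each VSMC set left out. A fit of EC without sets 9, 11 and 13 was added after seeing the data.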

Additional observations from a re-analysis of the deposited data

Results flagged for a closer look

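Among 99 groups of 4 to 10 libraries (9 genes by cell type and condition), 4 held a library far from the rest of its group by Dixon's criterion, which chance alone gives in about 1 of 20 groups. Bmp2 was at 0.0321 FPM in the AII+NA library and at 0 FPM in the ALL library of EC set 18, below all other EC libraries of these conditions. Id1 was at 14 FPM in the AII+NA library of EC set 11, which is among the sets with few endothelial transcripts. Id2 was at 32.7 FPM in the ALL library of WT VSMC set 3, whose Id2 was also the lowest of the 4 sets in the other conditions.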

How the results depend on the processing

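Counts of DEG among the 9 genes were recomputed under each alternative. For AII+NA in WT VSMC the count of 1 became 2 with DESeq2 alone, with no count filter and with only the 2 groups compared (Bmp3 and Gdf6), 0 without the set as a block, and 0 to 0 when each set was left out. Without the block, the count for ALL in WT VSMC was 0 in place of 2, for ALL against HG+FFA in WT VSMC 0 in place of 1 and for ALL in KO VSMC 0 in place of 1, while the other counts of 0 stayed. With only the 2 groups compared, the counts for ALL against HG+FFA in WT VSMC and for ALL in KO VSMC were also 0. Leaving out each set gave 0 to 1 for ALL against HG+FFA in WT VSMC, 0 to 1 for HG+FFA in KO VSMC, 0 to 1 for ALL in KO VSMC, 2 to 3 for ALL in WT VSMC, 0 to 1 for KO against WT VSMC in Control and 1 to 3 for EC against WT VSMC. For AII+NA in KO VSMC, DESeq2 alone and the fit with no count filter gave 1 (Bmp3), and for KO against WT VSMC DESeq2 alone gave 2. Among all genes tested, DESeq2 alone called 61 for AII+NA in WT VSMC, 13 for AII+NA in KO VSMC and 275 for KO against WT VSMC. EC against WT VSMC gave 6 without EC sets 9, 11 and 13, which were told apart by their own RNA. The share of all genes in that fit was not counted. Of 1393 log2FC of single genes under the alternatives, 77 had another sign than reported, 20 lost a call and 13 gained one. No called gene changed sign. The causes were not tested. With no count filter the SE of Gdf6 with ALL was 0.10 in place of 0.32. Counts limited Bmp2 in all cells and Bmp3 in EC, where libraries held as few as 0 reads.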
